A study of Mus musculus with 16 samples.

Results

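The 9 genes described here encode the precursors of neuropeptide Y (Npy), somatostatin (Sst), cholecystokinin (Cck), enkephalin (Penk), dynorphin (Pdyn), substance P (Tac1), neurokinin B (Tac2), vasoactive intestinal peptide (Vip) and corticotropin-releasing hormone (Crh). They were taken by name from the 24421 gene names of the deposited tables, and all 9 were among the 17317 genes that were tested, those whose mean reached 0.1 TPM. TPM is the share of all transcripts that a gene takes, corrected for its length, so the levels of different genes can be set side by side. The dentate gyri came from male C57BL/6 mice aged 1 year, with 4 libraries in each of 4 groups and the tissue of 2 mice pooled in each library. Wild-type mice (p16Ink4a +/+) were either sedentary (p16 WT CTL, replicates 1 to 4) or had a running wheel for 12 days (p16 WT RUN, replicates 9 to 12), and knockout mice (p16Ink4a -/-) were likewise sedentary (p16 KO CTL, replicates 5 to 8) or running (p16 KO RUN, replicates 13 to 16). The knockout is a germline null allele of the cell cycle inhibitor p16Ink4a that leaves p19Arf functional, was made in FVB mice and then bred into C57BL/6, and is present in every cell, not only in stem cells.

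Neuropeptides are short signalling peptides that neurons cut out of larger precursor proteins, pack into dense core vesicles and release on strong firing to act on G protein-coupled receptors. In the dentate gyrus the precursors mark distinct cells: somatostatin and neuropeptide Y are made mainly by inhibitory interneurons of the hilus, vasoactive intestinal peptide by interneurons that contact other interneurons, and dynorphin by granule neurons, which store it in their mossy fibre endings. Enkephalins and dynorphins are opioid peptides, and tachykinins, cholecystokinin and corticotropin-releasing hormone each have their own receptors.

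Both opioid precursors repeat the enkephalin sequence, and they differ in the number of copies and in Met-enkephalin against Leu-enkephalin. The stretches of the coding sequence that encode an enkephalin are written 5′ to 3′, with the 15 coding bases in capitals and the flanking codons, which mostly encode the basic residues where convertases cut, in lower case. Penk carried 7 such stretches in exon 2, 6 for Met-enkephalin and 1 for Leu-enkephalin, within 804 coding bases on the minus strand of chromosome 4 (GENCODE vM21, mm10). The Penk stretches span chr4:4133842-4134354, and 5 of the 7 have a basic pair of codons on both sides.
Penk copy 1: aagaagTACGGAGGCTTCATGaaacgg
Penk copy 2: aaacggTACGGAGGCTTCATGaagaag
Penk copy 3: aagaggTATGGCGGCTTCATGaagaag
Penk copy 4: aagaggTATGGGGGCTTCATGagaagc
Penk copy 5: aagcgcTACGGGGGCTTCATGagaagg
Penk copy 6: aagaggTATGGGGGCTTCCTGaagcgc
Penk copy 7: aaaagaTACGGGGGCTTTATGcggttc
Pdyn carried 3 stretches for Leu-enkephalin, each the start of a longer opioid peptide, in exon 4 within 744 coding bases on the minus strand, spanning chr2:129688067-129688258.
Pdyn copy 1: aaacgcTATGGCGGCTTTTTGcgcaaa
Pdyn copy 2: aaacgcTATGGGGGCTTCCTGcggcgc
Pdyn copy 3: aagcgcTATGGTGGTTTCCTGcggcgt

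The dissections carried the markers of their tissue. All 6 dentate granule neuron markers were present in every library, with a summed level of 576 to 1515 TPM, and the 10 markers of inhibitory interneurons summed to 703 to 848 TPM. Markers of choroid plexus summed to 212 TPM in p16 KO CTL replicate 7, against 16.6 to 61.5 TPM elsewhere. Their part in the results was not tested. The row of Cdkn2a, the gene that p16Ink4a shares with p19Arf, was at 0 to 0.586 TPM and does not check the genotype. Relative coverage was 0.623 to 0.897 of the mean library in the 8 running and 0.901 to 1.93 in the 8 sedentary libraries, so it did not overlap between the arms of any running comparison, and its part in the running results was not tested. In p16 WT CTL replicate 2 and p16 KO CTL replicates 6 and 7, the 8 RNAs of a nuclear RNA list summed to 977, 541 and 479 TPM, below the range of 1828 to 2533 TPM in the other 13 libraries. These 3 libraries are all sedentary, and calls that end without them are given beside the results of the running comparisons.

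The 9 precursors spanned a wide range of levels. Cck had the highest mean, 868 ± 143 TPM (SD, n = 16), and ranked 127 among all gene names, followed by Sst at 558 ± 111 and Npy at 212 ± 44.7 TPM. Penk (47.6 ± 17.4) and Pdyn (33.2 ± 8.25) formed a middle tier, and Vip (14.0 ± 3.81), Tac1 (11.7 ± 1.60), Tac2 (4.52 ± 4.25) and Crh (2.53 ± 0.756) were lower. Cck lay above Sst, Sst above Npy and Npy above Penk in 16 of 16 libraries, and Pdyn lay above Vip in 16 of 16. Penk exceeded Pdyn in 12 of 16 libraries and Vip exceeded Tac1 in 10 of 16, so the order of these neighbours did not hold in every library. Tac1 lay above Tac2 in 15 of 16 libraries and Tac2 above Crh in 13 of 16.

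**Figure D1:**
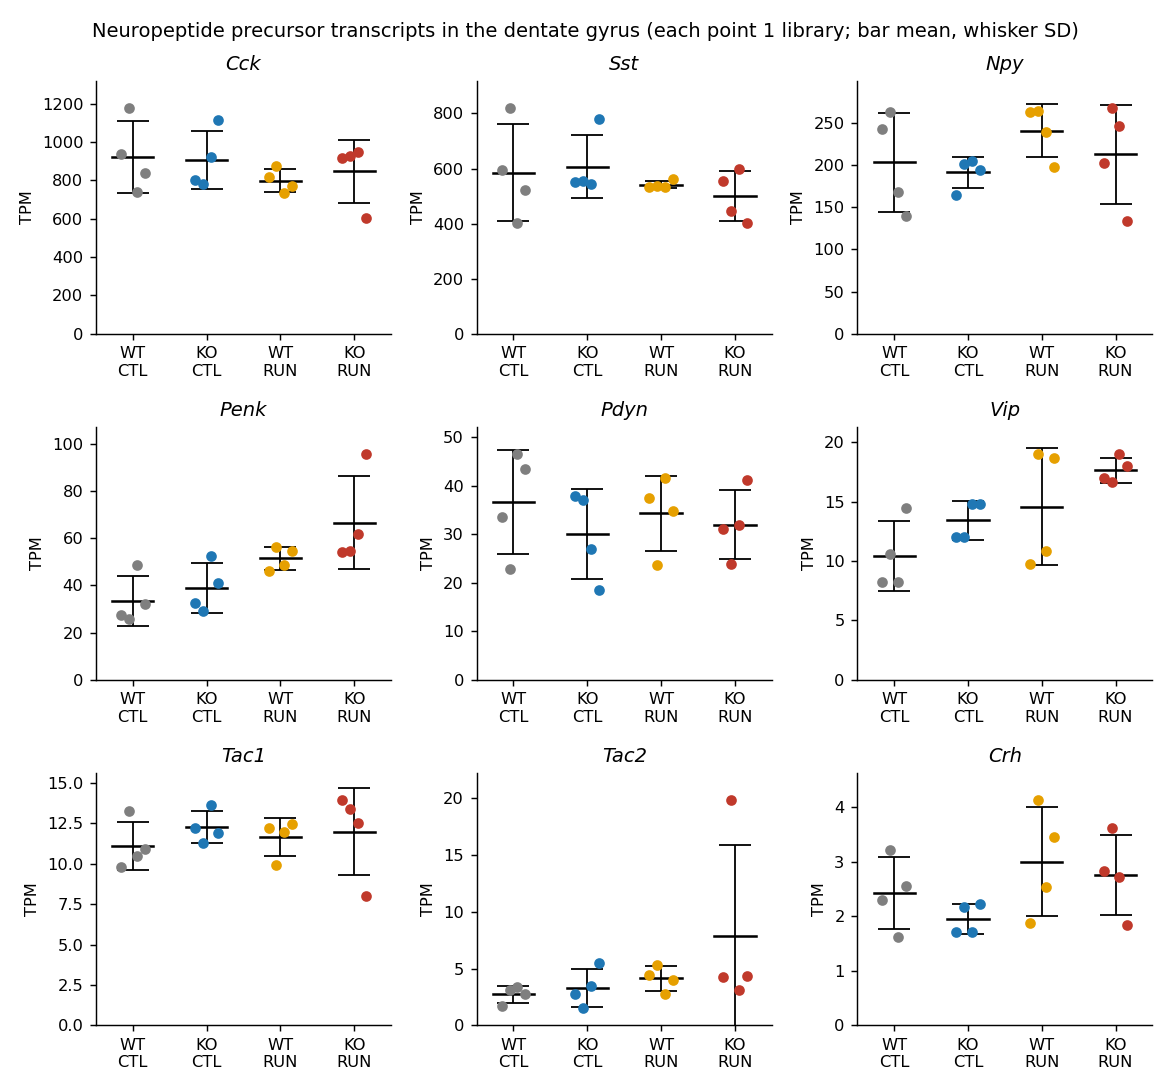
TPM of each precursor (vertical axis, starting at 0) in the 4 groups, with 1 point per library, a bar at the group mean and whiskers of 1 SD (n = 4, and for Tac2 in p16 KO RUN the lower whisker runs below the axis). Penk is at 54.4 to 95.8 TPM in p16 KO RUN and at 29.0 to 52.6 TPM in p16 KO CTL, and 1 p16 KO RUN library reaches 19.9 TPM of Tac2.

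Running was compared with the sedentary state within each genotype and then over both. Of the 9 precursors, Penk was higher in running mice of both genotypes and Vip was higher in running knockout mice, at an unadjusted p under 0.05, the threshold of the study. In running knockout mice (Set A, runners against sedentary knockout libraries) 2 of 9 precursors passed that threshold, Penk and Vip, where 18.5% of all tested genes did. In wild-type mice (Set C, runners against sedentary wild-type libraries) 1 of 9 passed, Penk, where 4.81% of all genes did. Over both genotypes 3 of 9 passed (Penk, Vip and Tac2), where 17.5% of all genes did, and 1 of 9, Penk, passed an adjusted p under 0.05, where 0.797% did. With 9 genes, the counts at the unadjusted threshold are close to these backgrounds and are no result about the precursors as a group. For genes named as passing, higher or lower, the unadjusted p was under 0.05, and most are given with their adjusted p. The median log2 fold change of the 9 was 0.16 with running over both genotypes, against 0.01 over all tested genes.

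Penk lies at chr4:4133536-4138445 on the minus strand (mm10). Its level was 27.2, 25.9, 48.7 and 31.9 TPM in p16 WT CTL replicates 1 to 4, and 46.1, 56.5, 48.5 and 54.6 TPM in p16 WT RUN replicates 9 to 12. In knockout mice it was 32.4, 29.0, 52.6 and 41.2 TPM in p16 KO CTL replicates 5 to 8, and 54.4, 54.6, 62.0 and 95.8 TPM in p16 KO RUN replicates 13 to 16. Thus, in TPM as deposited all 4 running knockout libraries lay above all 4 sedentary ones. In that comparison 10% of all tested genes were separated, in either direction. In wild-type mice the running range was overlapped by replicate 3 alone, at 48.7 TPM. On the scaled values that the tests use, p16 KO CTL replicate 7 was at 57.2, above p16 KO RUN replicates 13 and 14 at 53.5 and 55.4, so the knockout groups overlapped.

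The Penk mean went from 33.4 ± 10.5 to 51.4 ± 4.89 TPM in wild-type and from 38.8 ± 10.6 to 66.7 ± 19.7 TPM in knockout mice (mean ± SD, n = 4 each). On the log2 scale, from values scaled between libraries with 0.1 TPM added, it rose by 0.65 (SE 0.17, limma p = 0.0043, adjusted p = 0.937) in wild-type and by 0.71 (SE 0.23, p = 0.0129, adjusted p = 0.208) in knockout mice, with an exact two-sided permutation p = 0.0857 for both. For 4 against 4 libraries the smallest p that exact permutation can give is 0.0286. Over both genotypes Penk rose by 0.68 (SE 0.15, 95% interval 0.36 to 1.00, 1.60-fold, p = 0.000348, adjusted p = 0.0473), and exact permutation within each genotype gave p = 0.00367. The interaction term, which tests whether the running effect differed between genotypes, was 0.06 (95% interval -0.60 to 0.73, adjusted p = 0.966).

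The unadjusted call of Penk held without any single library and without those low in nuclear RNA. Leaving out each library in turn gave 0.59 to 0.77, with an unadjusted p under 0.05 in 16 of 16 fits, and the value was 0.67 (adjusted p = 0.189) without the 3 libraries low in nuclear RNA, where Penk was also higher by 0.57 (adjusted p = 0.783) in wild-type and by 0.81 (adjusted p = 0.494) in knockout mice. The adjusted call was less steady and held in 3 of those 16 fits (adjusted p 0.0167 to 0.103). In these bulk libraries a change in the share of Penk cells and a change in RNA per cell cannot be told apart, here as in every later result. The annotated Penk locus shares 499 bases with A830012C17Rik on the opposite strand, and whether the abundance step used strand is not given in the sources used here. In p16 KO RUN replicate 16, which had the highest Penk, the granule neuron markers were also highest at 1515 TPM, and the part of this in its Penk level was not tested.

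**Figure D2:**
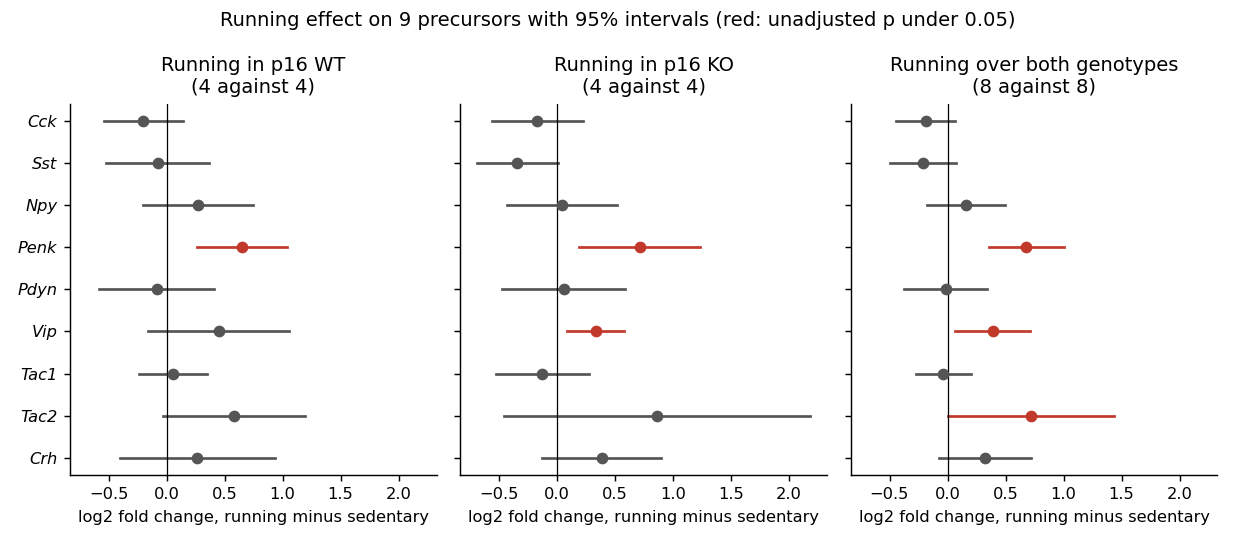
Log2 fold change of each precursor, running minus sedentary (horizontal axis), with 95% intervals from limma, in p16 WT, in p16 KO and over both genotypes, in red where the unadjusted p is under 0.05. The Penk interval lies above 0 in each panel (0.65, 0.71 and 0.68), and the widest interval is that of Tac2 in p16 KO.

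Vip lies at chr10:5639218-5647614 on the plus strand. It was at 8.26, 10.6, 8.22 and 14.5 TPM in the sedentary wild-type libraries and at 12.0, 12.0, 14.8 and 14.8 TPM in p16 KO CTL. With running it was at 9.77, 19.0, 10.9 and 18.7 TPM in p16 WT RUN and at 17.0, 16.6, 19.0 and 17.95 TPM in p16 KO RUN. Every running knockout library exceeded every sedentary knockout library, in TPM as deposited and on the scaled values. Such separation in Set A was seen for 10% of all tested genes in TPM as deposited and for 10.4% on the scaled values. The wild-type runners instead split into a low pair, replicates 9 and 11, within the sedentary range and a high pair, replicates 10 and 12, above it.

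Group means of Vip were 10.4 ± 2.94 (wild type) and 13.4 ± 1.61 TPM (knockout) in sedentary mice and 14.6 ± 4.94 and 17.6 ± 1.07 TPM in the respective runners (SD, n = 4). In knockout mice it rose by 0.33 on the log2 scale (SE 0.11, p = 0.0133, adjusted p = 0.209, exact permutation p = 0.0286, the smallest possible). The call was lost, with the same difference of 0.33, when all 16 libraries entered one fit (adjusted p = 0.394). In wild-type mice the difference was 0.45 (SE 0.27, exact permutation p = 0.229, adjusted p = 0.985), so the larger estimate had the larger spread. The interaction was -0.11 (95% interval -0.78 to 0.55, adjusted p = 0.934). Over both genotypes the rise was 0.39 (SE 0.15, p = 0.0205, adjusted p = 0.208, exact permutation p = 0.0384), with a p under 0.05 on leaving out any 1 of the 16 libraries. Without the 3 libraries low in nuclear RNA it was 0.44 (adjusted p = 0.513) over both genotypes and 0.38 in knockout mice, both still past the unadjusted threshold.

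Vip was also the precursor that passed the unadjusted threshold between genotypes. In sedentary mice (Set B, knockout minus wild type) 1 of 9 precursors passed, where 6.69% of all genes did, and over both activities 1 of 9, where 6.94% did. The Vip difference was 0.46 in Set B (SE 0.19, p = 0.0401, adjusted p = 0.625, exact permutation p = 0.114). It lost its call on leaving out p16 WT CTL replicate 1 or 3 or p16 KO CTL replicate 7 or 8, when it was 0.35 to 0.41. The call was also lost, at 0.46, without the 3 libraries low in nuclear RNA, without a filter, without a variance trend and with all 16 libraries in one fit. With TPM as deposited it was lost at 0.40. Over both activities it was 0.40 higher in knockout mice (SE 0.15, p = 0.0178, adjusted p = 0.696, exact permutation p = 0.0376), and 0.39 without the 3 libraries low in nuclear RNA, no longer past the threshold. The Vip running and genotype comparisons share their control libraries, sedentary knockout libraries entering Sets A and B and sedentary wild-type libraries Sets B and C.

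The start of Vip is preceded by a sequence with 1 TGACG, the core of the site at which cAMP response element binding protein is known to act, and is shown because Vip passed in running mice. The 250 bases before the RefSeq start (GRCm38.p6, chr10:5638968-5639217, plus strand) are printed with that match in capitals, 79 bases before the start.
Vip promoter: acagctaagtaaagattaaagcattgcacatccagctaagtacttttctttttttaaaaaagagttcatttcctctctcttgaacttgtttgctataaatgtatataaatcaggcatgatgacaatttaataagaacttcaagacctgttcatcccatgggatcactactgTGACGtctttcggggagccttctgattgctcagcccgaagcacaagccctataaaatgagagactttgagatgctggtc
The Sst promoter (chr16:23890845-23891094, minus strand) instead held the full palindrome TGACGTCA, 48 bases before its start, and Sst did not pass in any comparison of all libraries.
Sst promoter: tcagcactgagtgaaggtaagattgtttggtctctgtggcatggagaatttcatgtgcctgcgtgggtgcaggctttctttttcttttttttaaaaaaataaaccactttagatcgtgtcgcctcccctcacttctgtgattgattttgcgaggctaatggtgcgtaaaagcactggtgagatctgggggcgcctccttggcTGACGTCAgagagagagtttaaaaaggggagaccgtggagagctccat
On either strand, TGACG occurs in 17.77% and TGACGTCA in 1.546% of 32851 promoters of this length. Promoter entries matched 7 of the 9 precursors, and 4 of them, Sst, Vip, Cck and Tac1, held TGACG. Penk and Crh had no entry, so their promoters were not read. A match is a stretch of letters only, and binding was not measured.

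Tac2, at chr10:127724478-127731768 on the plus strand, was at 1.68, 3.15, 3.35 and 2.74 TPM in the sedentary wild-type libraries and at 2.78, 1.52, 3.48 and 5.48 TPM in p16 KO CTL. It was at 4.47, 5.35, 2.75 and 4.02 TPM in p16 WT RUN and at 4.23, 19.9, 3.08 and 4.31 TPM in p16 KO RUN. Replicate 14 stood far above the other 15 libraries, which lay between 1.52 and 5.48 TPM. Over both genotypes Tac2 was 0.72 higher with running on the log2 scale (SE 0.34, p = 0.0486, adjusted p = 0.282, exact permutation p = 0.0592). Without replicate 14 the difference was 0.43, and the call was kept in 7 of 16 fits that each left out 1 library. The call was also lost, at 0.59 to 0.72, without a filter, with 1 TPM added, after quantile normalization or without a variance trend. It was also lost, at 0.62, without the 3 libraries low in nuclear RNA, although Tac2 then passed in wild-type mice at 0.68 (adjusted p = 0.783). Within genotypes the difference was 0.58 (SE 0.27, exact permutation p = 0.114) in wild-type and 0.86 (SE 0.59, exact permutation p = 0.314) in knockout mice.

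Neurokinin B is strongly made in the medial habenula, a region close to the dorsal hippocampus, and markers of thalamus and habenula were therefore read in the same library. In p16 KO RUN replicate 14, 4 of the 7 markers were above all other libraries. Pou4f1 was at 1.94 TPM against 0 to 0.077 TPM elsewhere, and Gpr151 at 7.14 against 0.244 to 1.35 TPM. Gng8 was at 1.96 against at most 1.68 TPM and Tcf7l2 at 5.59 against at most 5.02 TPM, whereas Rgs16, Prkcd and Nwd2 were within the range of the others. The summed list was at 85.9 TPM in that library and at 42.2 to 84.9 TPM in the rest, and its part in the Tac2 difference was not tested. The mean of the other 3 p16 KO RUN libraries was 3.87 ± 0.690 TPM of Tac2.

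**Figure D3:**
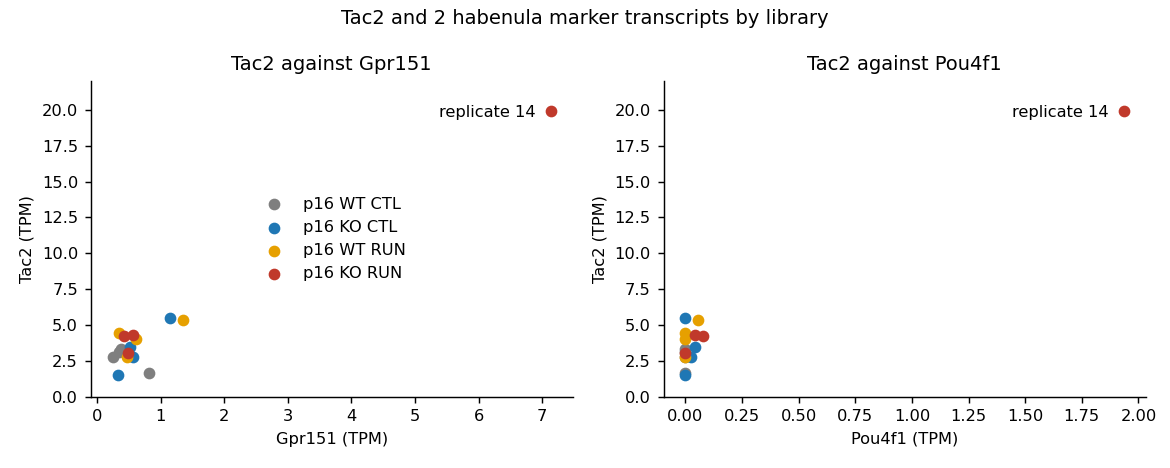
TPM of Tac2 (vertical axis) against TPM of Gpr151 and of Pou4f1 (horizontal axes), transcripts of the medial habenula, with 1 point per library coloured by group. Replicate 14 of p16 KO RUN stands apart from the other 15 libraries on both axes, at 19.9 TPM of Tac2, 7.14 TPM of Gpr151 and 1.94 TPM of Pou4f1.

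The 3 most abundant precursors, Cck, Sst and Npy, did not pass in any comparison of all libraries. Without the 3 libraries low in nuclear RNA, Sst passed in the interaction, at -0.55 (adjusted p = 0.686) against -0.27 with them. Sst (chr16:23889581-23890844, minus strand) was at 595, 819, 402 and 522 TPM in the sedentary wild-type libraries and at 551, 554, 543 and 778 TPM in the sedentary knockout libraries. The runners had 534, 537, 532 and 561 TPM (wild type) and 553, 447, 599 and 404 TPM (knockout). The runners of wild-type mice were close to each other, and the sedentary wild-type libraries spanned the widest range. With running in knockout mice Sst differed by -0.34 (SE 0.15, exact permutation p = 0.20), and over both genotypes by -0.21 (95% interval -0.49 to 0.08, exact permutation p = 0.185).

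Cck (chr9:121489824-121495694, minus strand) was at 936, 1176, 741 and 837 TPM in the sedentary wild-type libraries and at 803, 781, 922 and 1113 TPM in p16 KO CTL. It was at 817, 873, 731 and 769 TPM in p16 WT RUN and at 916, 926, 945 and 601 TPM in p16 KO RUN. All groups overlapped, and the running difference was -0.19 (95% interval -0.44 to 0.07, exact permutation p = 0.186). Npy (chr6:49822729-49829505, plus strand) was at 242, 262, 168 and 140.0 TPM in the sedentary wild-type libraries and at 164, 201, 205 and 194 TPM in p16 KO CTL. It was at 263, 264, 239 and 198 TPM in p16 WT RUN and at 203, 268, 246 and 134 TPM in p16 KO RUN. The Npy groups overlapped as well, with a running difference of 0.16 (95% interval -0.18 to 0.49, exact permutation p = 0.382).

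Pdyn, the other opioid precursor, did not pass in any comparison. Pdyn (chr2:129686549-129699938, minus strand) was at 33.5, 22.9, 46.5 and 43.4 TPM in the sedentary wild-type libraries and at 37.7, 37.0, 26.9 and 18.4 TPM in the sedentary knockout libraries. The runners had 37.3, 23.5, 41.5 and 34.7 TPM (wild type) and 31.0, 23.8, 31.9 and 41.1 TPM (knockout). Each group held a library near the bottom of the range, and the running difference was -0.01 (95% interval -0.37 to 0.34, exact permutation p = 0.941), or 0.025 from TPM as deposited. The interval of Pdyn does not reach the Penk estimate of 0.68, but the difference between Pdyn and Penk was not itself tested.

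Tac1 (chr6:7555071-7562973, plus strand) ranged from 8.02 TPM in p16 KO RUN replicate 16 to 14.0 TPM in replicate 13 of the same group, and Crh (chr3:19693401-19695396, minus strand) from 1.62 TPM in p16 WT CTL replicate 3 to 4.14 TPM in p16 WT RUN replicate 10. Their running differences over both genotypes were -0.04 (95% interval -0.27 to 0.20, exact permutation p = 0.80) for Tac1 and 0.32 (95% interval -0.07 to 0.72, exact permutation p = 0.123) for Crh, and that of Tac1 was 0.00304 from TPM as deposited. The mean of Crh was 2.42 ± 0.660 (wild type) and 1.96 ± 0.278 TPM (knockout) in sedentary mice and 3.00 ± 0.998 and 2.76 ± 0.726 TPM in the respective runners.

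Between genotypes the precursors other than Vip did not pass. In running mice (Set E, knockout minus wild type) 0 of 9 passed, where 3.87% of all genes did, and the 9 log2 differences ran from -0.21 for Npy to 0.52 for Tac2. Penk was the nearest to the threshold in Set E, with a difference of 0.35 (SE 0.17, exact permutation p = 0.143), which was 0.16 without p16 KO RUN replicate 16. Over both activities Penk differed by 0.31 (95% interval -0.01 to 0.63, exact permutation p = 0.0804), and the other 7 ranged from -0.16 for Pdyn to 0.38 for Tac2. The interaction was called for 0 of 9, where 5.48% of all genes passed, by limma.

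The receptors were read from a list of 22 genes, 20 of which were tested. With running over both genotypes 4 were higher and 2 lower at the unadjusted threshold, which 9.61% of all genes passed as higher and 7.88% as lower, and 1 passed the adjusted one. That one was Oprd1, the delta opioid receptor, which binds enkephalins. It was at 7.42, 7.30, 10.3 and 7.53 TPM in the sedentary wild-type libraries and at 7.50, 6.71, 6.92 and 6.99 TPM in p16 KO CTL. With running it was at 9.67, 11.6, 10.9 and 9.60 TPM in p16 WT RUN and at 9.49, 9.75, 11.0 and 11.7 TPM in p16 KO RUN. Of the sedentary libraries only p16 WT CTL replicate 3 reached the running range, and the same library had the highest Penk of its group.

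Oprd1 rose by 0.43 (SE 0.08, adjusted p = 0.0176), by 0.36 (SE 0.13, adjusted p = 0.985) in wild-type and by 0.50 (SE 0.10, adjusted p = 0.114) in knockout mice. The adjusted p stayed between 0.00729 and 0.0484 on leaving out each library in turn, and was 0.181 without the 3 libraries low in nuclear RNA, where the difference was 0.41 and the unadjusted call was kept. The mu opioid receptor Oprm1, which also binds enkephalins, was at 1.85 TPM on average and differed by 0.05 (SE 0.21, adjusted p = 0.924), and the kappa receptor Oprk1, which binds dynorphins, was at 0.382 TPM.

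Receptors of the other peptides moved in both directions. Sstr2, a somatostatin receptor, rose by 0.43 (SE 0.12, adjusted p = 0.0921), its mean going from 19.2 to 23.4 TPM in wild-type and from 18.3 to 29.3 TPM in knockout mice, and it was not called in wild-type mice (0.26, adjusted p = 0.985). The Sstr2 locus overlaps Slc39a11 on the other strand. Of the neuropeptide Y receptors, Npy5r rose by 0.34 (SE 0.10, adjusted p = 0.117) and Npy1r by 0.28 (SE 0.12, adjusted p = 0.258), whereas Npy2r, known as a presynaptic receptor, fell by 0.23 (SE 0.07, adjusted p = 0.133). The Npy1r call held in 7 of 16 fits without 1 library, and the difference was 0.12 (adjusted p = 0.861) without the 3 libraries low in nuclear RNA. Crhr1, the main receptor of corticotropin-releasing hormone, fell by 0.28 (SE 0.13, adjusted p = 0.277), a call kept in 8 of 16 such fits. For Vip the receptors Vipr1 and Vipr2 differed by 0.03 (adjusted p = 0.921) and 0.14 (adjusted p = 0.826), and for Tac2 the receptor Tacr3, at 0.581 TPM on average, differed by 0.18 (adjusted p = 0.872).

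Within genotypes 6 of 20 receptors passed in Set A, where 18.5% of all genes did, and 3 of 20 in Set C, where 4.81% did. Oprl1 and Sstr3 were lower in Set A (-0.18, adjusted p = 0.24, and -0.28, adjusted p = 0.259). In Set C Npy2r (-0.35, adjusted p = 0.937) and Cckbr (-0.51, adjusted p = 0.985) were lower. The Npy2r call held in 8 of 8 fits without 1 library. Oprl1 kept its call in 4 of 8 fits without 1 library, and Oprd1 in Set C in 5 of 8. Without the 3 libraries low in nuclear RNA, Sstr3 was at -0.33 and Cckbr at -0.42, both no longer past the threshold, and each kept its call in 2 of 8 fits without 1 library. Npy1r, higher by 0.50 in Set A (adjusted p = 0.166), was at 0.39 without those libraries and also lost its call. In Set B, 2 of 20 passed, where 6.69% of all genes did, both lower in knockout mice: Npy1r by -0.41 (adjusted p = 0.625) and Vipr1, a receptor of the Vip peptide, by -0.46 (adjusted p = 0.625). Both kept their call in 2 of 8 fits without 1 library, and Vipr1 was at -0.38, not past the threshold, without those low in nuclear RNA. Between genotypes over both activities 1 of 20 passed, where 6.94% of all genes did. This was Tacr2, a tachykinin receptor, higher in knockout libraries at a mean level of only 0.24 TPM and not past the adjusted threshold. None of the 20 passed in Set E or in the interaction by limma.

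**Figure D4:**
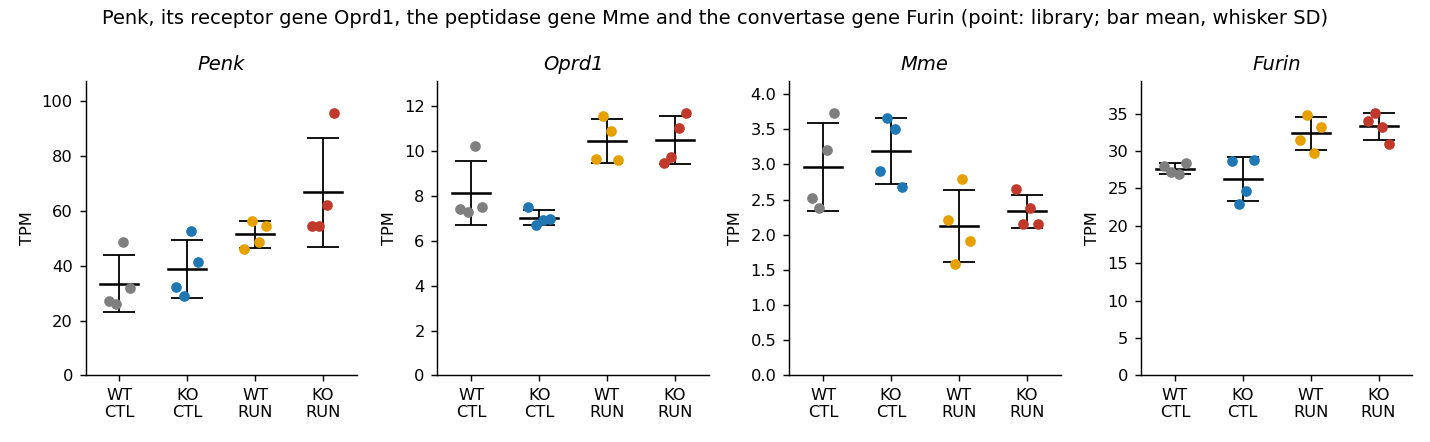
TPM (vertical axes, starting at 0) of Penk, of Oprd1, which encodes the delta opioid receptor, of Mme, which encodes neprilysin, and of Furin in the 4 groups, with 1 point per library, a bar at the mean and whiskers of 1 SD (n = 4). In these unscaled values the 8 running libraries of Furin sit above all 8 sedentary ones, and 7 of 8 sedentary libraries of Oprd1 sit below the running range.

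Among 15 genes of prohormone processing and dense core vesicles, 4 were higher and 3 lower with running over both genotypes, against 9.61% and 7.88% of all genes. Furin, a convertase of the constitutive secretory pathway, was at 22.9 to 28.8 TPM in the 8 sedentary and at 29.8 to 35.1 TPM in the 8 running libraries. In TPM as deposited the states did not overlap, as was the case for 0.381% of tested genes. On the scaled values, where 0.45% of genes did not overlap, Furin did, since p16 KO CTL replicate 8 was at 29.6 and p16 WT RUN replicate 11 at 28.9. Furin rose by 0.25 (SE 0.05, adjusted p = 0.0396). The adjusted call for Furin held in 7 of 16 fits without 1 library, and the adjusted p was 0.221 without the 3 libraries low in nuclear RNA, with a difference of 0.21. Furin overlaps the antisense gene Gm44851, and Ece1, Scg3 and Sec11c also overlap gene models on the opposite strand.

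The secreted granule proteins Vgf (0.44, adjusted p = 0.211), Chga (0.19, adjusted p = 0.224) and Scg2 (0.17, adjusted p = 0.254) were also higher. Scg5, a chaperone of a neuroendocrine convertase (-0.25, adjusted p = 0.248), Scg3 (-0.18, adjusted p = 0.249) and Sec11c, a subunit of the signal peptidase (-0.18, adjusted p = 0.119), were lower. Of 16 fits without 1 library, the call held in 15 for Vgf, in 10 for Chga and Scg3 and in 9 for Scg2 and Scg5. Without the 3 libraries low in nuclear RNA, Scg3 was at -0.02 (adjusted p = 0.934), Scg5 at -0.14 (adjusted p = 0.759) and Sec11c at -0.11 (adjusted p = 0.591). The neuroendocrine convertase Pcsk1 differed by 0.12 (adjusted p = 0.745). The list median was -0.02, against 0.01 over all genes.

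Of 12 genes listed as peptidases, members of peptidase families or a binding protein, 2 were higher and 1 lower, which is near the 17.5% of all genes that passed. The lower one was Mme, which encodes neprilysin, a membrane peptidase that degrades enkephalins among other peptides. It was at 2.38 to 3.74 TPM in the 4 p16 WT CTL and at 2.68 to 3.66 TPM in the 4 p16 KO CTL libraries, and at 1.58 to 2.79 and 2.15 to 2.66 TPM in the respective runners. Mme fell by 0.49 (SE 0.13, adjusted p = 0.0784), with 6 of 8 running libraries below every sedentary one, and was at -0.43 (adjusted p = 0.37) without the 3 libraries low in nuclear RNA. Ece1 (0.16, adjusted p = 0.157) and Thop1 (0.10, adjusted p = 0.203) were higher, Ece1 at 0.08 (adjusted p = 0.692) without those libraries.

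Within genotypes 5 of 15 processing genes passed in Set A, where 18.5% of all genes did. Furin was higher (0.28, adjusted p = 0.175), and Sec11c (-0.24, adjusted p = 0.198), Scg5 (-0.39, adjusted p = 0.216) and Cpe, which encodes carboxypeptidase E (-0.30, adjusted p = 0.259), were lower. The fifth was Scg2, higher by 0.27 (adjusted p = 0.27) and called in 2 of 8 fits without 1 library. Cpe kept its call in 1 of 8 fits. In Set C, where 4.81% of all genes passed, 1 of the 15 did, Furin (0.21, adjusted p = 0.985). Of the 12 genes of the peptidase list, 4 passed in Set A. Ece2 (0.27, adjusted p = 0.209) and Ece1 (0.22, adjusted p = 0.223), both endothelin-converting enzymes, were higher, and Mme (-0.49, adjusted p = 0.217) and Dpp10 (-0.25, adjusted p = 0.221) were lower. Mme passed alone in Set C (-0.48, adjusted p = 0.985), in 3 of 8 fits without 1 library, and Ece1 and Dpp10 kept their Set A calls in 5 and 4 of 8. The Set A calls of Mme (-0.27), Ece2 (0.20), Ece1 (0.14), Dpp10 (-0.21), Cpe (-0.14) and Sec11c (-0.17) were lost without the 3 libraries low in nuclear RNA. The Ece2 locus overlaps Gm49333 on the same strand, so its values are uncertain.

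Between genotypes in sedentary mice (Set B, where 6.69% of all genes passed), Pcsk1n, an inhibitor of Pcsk1, was higher in knockout libraries by 0.30 (adjusted p = 0.625). Cadps2, a factor in dense core vesicle release, was higher by 0.25 and Ece2 lower by -0.34 (adjusted p = 0.625 for both). Cadps2 kept its call in 5 of 8 fits without 1 library. In Set E, where 3.87% passed, Pam, which amidates peptides, was higher by 0.14, Scg3 by 0.11 and Ace, which encodes angiotensin-converting enzyme, by 0.47 (adjusted p = 1 for each). Over both activities, where 6.94% passed, Pcsk1n (0.20), Scg3 (0.18) and Cadps2 (0.16) were higher in knockout libraries (adjusted p = 0.696 for each). Of both lists the interaction was called by limma for Ece2 alone (0.39, adjusted p = 0.797), where 5.48% of all genes passed.

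Of 26 other neuropeptide precursors 22 were tested, and over both genotypes 1 was higher and 1 lower, where 17.5% of all genes passed. Npw was higher by 1.10 (adjusted p = 0.216) and Pmch lower by -1.09 (adjusted p = 0.206), at means of 1.59 and 0.877 TPM, and Pmch overlaps Parpbp on the opposite strand. The Npw call held in 14 of 16 fits without 1 library. In knockout mice 5 of 22 passed, where 18.5% of all genes did. These were Avp (1.18, adjusted p = 0.165), Adcyap1 (0.51, adjusted p = 0.165), Npw (1.71, adjusted p = 0.181) and Npb (0.97, adjusted p = 0.214) higher and Pmch (-1.26, adjusted p = 0.127) lower. In wild-type mice 0 of 22 passed by limma at the unadjusted threshold, where 4.81% of all genes did. Adcyap1 encodes PACAP, a relative of the Vip peptide. Without the 3 libraries low in nuclear RNA, Adcyap1 was at 0.37 and Npb at 0.74, and both lost their call. The interaction was not called by limma for any of these 5, so that fit did not show their running effect to differ between genotypes. The paper, with DESeq2 and a likelihood ratio test, lists Npw among its genes with an interaction of genotype and running. Between running mice (Set E), Avp was higher in knockout libraries by 0.92 and Adcyap1 by 0.32 (adjusted p = 1 for both), 2 of 22 against 3.87% of all genes. Rln3 passed in Set B, as lower in knockout libraries (-1.44, adjusted p = 0.625), in 2 of 8 fits without 1 library and not without those low in nuclear RNA, and in the interaction (2.09, adjusted p = 0.797), at only 0.308 ± 0.239 TPM in p16 WT CTL and 0.029 ± 0.059 TPM in p16 KO CTL.

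Several precursors varied together within groups, in libraries that share the scaling of TPM to a common total. After the group means were taken off, 36 pairs of precursors were compared over the 16 libraries on the scaled log2 values, and 6 pairs passed an adjusted permutation p under 0.05, 3 with a positive and 3 with a negative sign. Pdyn and Cck were the closest pair, with Pearson's r = -0.88 (permutation p = 3e-05, adjusted 0.00108) and Spearman's rho = -0.91 (p = 9e-05, adjusted 0.00324). Without the 2 libraries farthest from the median of Cck, r was -0.88. Sst varied in the same direction as Cck (r = 0.86, p = 0.00048, adjusted 0.00864, and rho = 0.83, p = 0.0008), with r = 0.79 without the 2 libraries farthest in Sst. Npy did so with Cck as well (r = 0.80, adjusted p = 0.0352, rho = 0.77, adjusted p = 0.0323, and r = 0.73 without 2 libraries). The other 3 pairs, Sst with Pdyn (r = -0.71), Cck with Crh (r = 0.69) and Pdyn with Crh (r = -0.70), passed by r but not by rho. Penk was in none of the 6 pairs, and its r with Pdyn was 0.11.

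**Figure D5:**
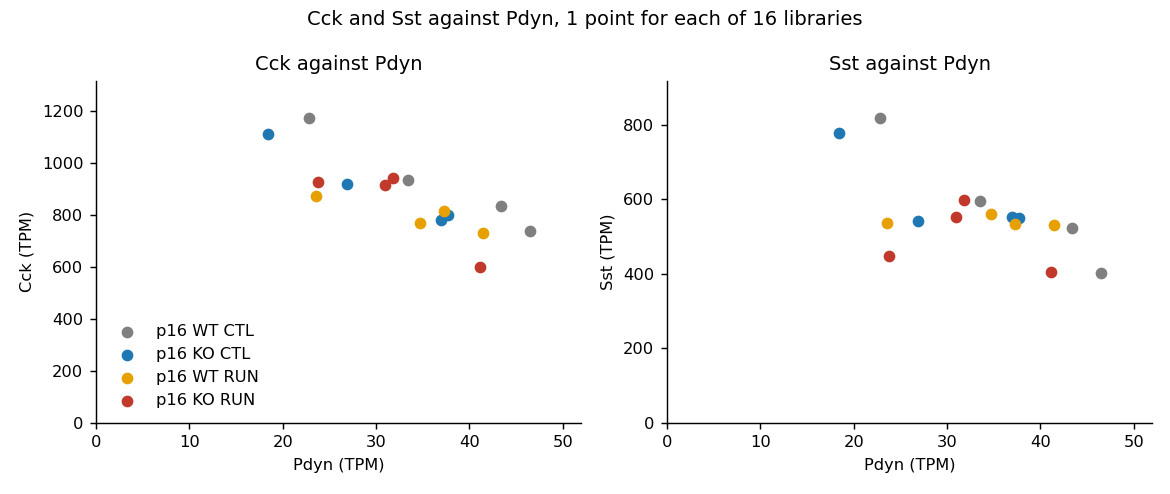
TPM of Cck and of Sst (vertical axes) against TPM of Pdyn (horizontal axis), both axes starting at 0, with 1 point for each of 16 libraries coloured by group. Cck is at 1113 TPM in the library with the lowest Pdyn (18.4 TPM) and at 741 TPM in the one with the highest (46.5 TPM).

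The libraries at the ends of the Pdyn range also differed in granule neuron markers. In p16 KO CTL replicate 8 the 6 markers summed to 576 TPM, the lowest of all, with the lowest Pdyn (18.4 TPM), 1113 TPM of Cck and 778 TPM of Sst. In the same library the 4 markers of CA1 pyramidal neurons summed to 178 TPM, against 42.0 to 97.0 TPM elsewhere. In p16 KO RUN replicate 16 the granule markers summed to 1515 TPM, the highest of all, with 41.1 TPM of Pdyn and the lowest Cck (601 TPM), Npy (134 TPM) and Tac1 (8.02 TPM). In p16 WT CTL replicate 3 they summed to 1508 TPM, with the highest Pdyn (46.5 TPM) and the lowest Sst (402 TPM). The part of the markers in these levels was not tested.

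The 3 genes most alike in pattern to each precursor were taken among the 14437 genes whose mean reached 1 TPM, by Pearson's r over the 16 libraries after group means were taken off. They are the highest of many, and carry no p. For Pdyn these were C1ql3 (r = 0.98), itself a marker of granule neurons, Gnal (0.97) and Gfra1 (0.97). For Sst they were Gnai1 (0.94), Slc32a1 (0.93), the vesicular transporter of inhibitory neurons, and Syt4 (0.93). Cck was closest to Tuba1c (0.97), Eps15 (0.97) and Khdrbs3 (0.96), and Npy to Fam19a1 (0.96), Cyp51 (0.95) and Msmo1 (0.94), the last 2 being enzymes of sterol synthesis. Penk was closest to Ift46 (0.88), Kif17 (0.87) and Fbxl12os (0.86), and Vip to Rnf128 (0.91), Ninj1 (0.88) and Map2 (0.87). Tac2 was closest to Rmnd5b (0.87), Hs6st1 (0.81) and Wfs1 (0.80), a marker of CA1 neurons, Crh to Nnat (0.92), Tubb2a (0.89) and Selt (0.88), and Tac1 to Fitm2 (0.87), Ticam2 (0.84) and Mthfd1l (0.83).

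Inhibitory interneuron markers did not move as one with running. Over both genotypes, of 10 genes 2 were higher and 1 lower, against 9.61% and 7.88% of all genes, Gad1, which encodes an enzyme that makes GABA, being higher by 0.14 (adjusted p = 0.0921). The summed list was at 703 to 828 (wild type) and 722 to 816 TPM (knockout) in sedentary mice and at 792 to 848 and 708 to 799 TPM in the respective runners. The 6 granule neuron markers gave 0 calls by limma with running in either genotype, with a median of 0.18 over both, and their part in the Penk and Vip differences was not tested. Of the markers of astrocytes and microglia, 4 of 8 passed as lower in running knockout mice, where 18.5% of all genes passed in either direction, 2 of 4 for astrocytes (Gja1, adjusted p = 0.178, and Slc1a3, adjusted p = 0.241, list median -0.38) and 2 of 4 for microglia (P2ry12, adjusted p = 0.264, and Csf1r, adjusted p = 0.268, list median -0.28). Their sums ran from 738 to 1140 TPM in the sedentary and 633 to 818 TPM in the running knockout libraries for astrocytes, and from 176 to 255 and 162 to 203 TPM for microglia. In wild-type mice 0 of these 8 passed by limma at the unadjusted threshold, where 4.81% of all genes did. The highest sums were those of p16 KO CTL replicates 6 and 7, both low in nuclear RNA (1140 and 1030 TPM for astrocytes, 255 and 237 TPM for microglia), and replicates 5 and 8 lay within the running range (806 and 738 TPM, 191 and 176 TPM). The part of these markers in the precursor differences was not tested.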

How the data were processed

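Total RNA of the dentate gyrus was sequenced by the authors in 16 libraries, 4 per group, each pooling 2 mice, so that p-values measure the spread between pools. A poly-A selecting Universal Plus mRNA-Seq kit was used. The authors demultiplexed with bcl2fastq 2.20, masked adapters with Cutadapt 1.11, trimmed with ERNE, aligned to mm10 with STAR and computed abundances with StringTie. The TPM values, as deposited, are StringTie abundances per gene, with gene length corrected for and a common total per library. The deposited FPKM values come from the same run by the authors. The coverage values, as deposited, are mean read depths per base and served only for relative depth. No read counts were used, so counting error is unknown. No batch is named in the sources used here.

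Entries of the same gene name were summed. Each library was divided by its median ratio to the average library, taken from the 13226 genes that reached 1 TPM in all 16. limma 3.58.1 (R 4.3.3, empirical Bayes with a variance trend) was run on log2 values of scaled TPM plus 0.1 for genes averaging 0.1 TPM or more, with Benjamini-Hochberg adjustment over the 17317 genes. This fold change understates that of low genes. Pairwise sets used the 8 libraries of their groups, the running, genotype and interaction fits all 16. Exact permutation of the mean log2 value covered 70 splits of 8 libraries, or 4900 within both strata. Pair correlations used 100000 resamples within groups. The procedure was tested on simulated data. Alternatives were other filters, pseudocounts, scalings and fits, the FPKM column, the highest value per name and leaving out each library.

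All 9 precursors are named, with genes of 4 pathway lists (receptors, processing, peptidases, other precursors) that had an unadjusted p under 0.05, the 4 of smallest p per list and comparison, the receptors of called precursors and the 3 genes most alike. Called genes past those 4 (in Set A Oprl1, Sstr3, Scg2 and Npb, over both genotypes Npy1r, Crhr1, Scg5, Scg3 and Scg2) and Pcsk1 were added after their values were seen. The members and lists were chosen with earlier results of these data known. Sequences come from GENCODE vM21 and RefSeq (GRCm38.p6).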

Additional observations from a re-analysis of the deposited data

Results flagged for a closer look

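In 36 sets of 4 libraries (9 precursors in 4 groups), 3 values stood apart from the rest of their group by Dixon's criterion, where chance alone gives about 1 in 20 sets. Sst was at 778 TPM in p16 KO CTL replicate 8, against 543 to 554 TPM in the other 3 libraries. Cck was at 601 TPM in p16 KO RUN replicate 16, against 916 to 945 TPM in the others. Tac2 was at 19.9 TPM in p16 KO RUN replicate 14, against 3.08 to 4.31 TPM in the others. The marker levels of these libraries are given beside the values in the report, and their part was not tested.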

How the results depend on the processing

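No paired analysis was possible because the 4 groups have no replicate number in common. Without the 3 libraries low in nuclear RNA, an alternative chosen after seeing the data, genes at an unadjusted p under 0.05 numbered 1470 in Set A and 1511 with running over both genotypes, against 3196 and 3030. Precursors at that threshold were then 2 in Set C (Penk and Tac2), 0 in Set B, 0 between genotypes and 1 in the interaction (Sst), and Vip was 0.46 in Set B and 0.39 between genotypes, Tac2 0.62 and Tac1 0.067 with running, none of these 4 past the threshold. With all 16 libraries in one fit, 1 precursor, Penk, passed in Set A, and Vip did not (0.33, adjusted p = 0.394). None passed in Set B (0, with Vip at 0.46), where 2205 genes did, against 1158. Vip in Set B also missed the threshold without a filter (0.46), with TPM as deposited (0.40) and without a variance trend (0.46), leaving 0 precursors there. Tac2 with running missed it without a filter (0.72), with 1 TPM added (0.59), after quantile normalization (0.64) and without a variance trend (0.72). TPM as deposited turned Pdyn (0.025) and Tac1 (0.00304) with running and Sst between genotypes (-0.023), and quantile normalization turned Sst (-0.023) and Cck (-0.00550) between genotypes. TPM as deposited also moved the split of calls, to 2500 higher and 709 lower in Set A from 1856 and 1340, and to 2191 and 833 from 1665 and 1365 with running over both genotypes.

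With each library left out in turn, genes past the threshold numbered 2023 to 4738 for Set A (without p16 KO CTL replicates 7 and 5), 557 to 3029 for Set B (without p16 KO CTL replicate 7 and p16 WT CTL replicate 2), 531 to 1018 in Set C, 486 to 1048 in Set E, 699 to 1861 between genotypes and 619 to 2381 in the interaction. Precursors numbered 0 to 2 in Set B, 1 to 2 in Set C, 0 to 1 in Set E, 1 to 2 between genotypes and 0 to 1 in the interaction. Log2 differences ranged over 0.35 to 0.62 for Vip in Set B, 0.43 to 0.85 for Tac2, -0.12 to 0.065 for Pdyn and -0.069 to 0.057 for Tac1 with running, -0.19 to 0.0088 for Npy and -0.080 to 0.095 for Sst between genotypes, and -0.12 to 0.24 for Penk and -0.29 to 0.043 for Vip in the interaction. The cause of these shifts was not tested. Low genes such as Crh and Tac2 are limited by an unknown read depth.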
